A study of Mus musculus with 5 samples.

Results

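CD8 T cells are the cytotoxic arm of the T lymphocytes, and they were described here in single-cell RNA libraries of mouse cortex taken at 4 times after traumatic brain injury (TBI) and after sham surgery. A cell barcode was counted as a CD8 T cell when it held at least 500 UMIs (unique molecular identifiers, each standing for 1 captured RNA molecule) and 200 genes with at most 20% mitochondrial UMIs, and met 4 conditions on named genes. At least 2 of the 6 T cell receptor genes Cd3d, Cd3e, Cd3g, Trac, Trbc1 and Trbc2 had to be detected, Cd8a or Cd8b1 had to be detected, Cd4 had to have 0 UMIs, and the microglial complement genes C1qa, C1qb and C1qc together had to stay under 0.2% of UMIs. These conditions took 646 of the 58411 barcodes that passed the same quality limits. They used measured values, so the levels of those 12 genes in the chosen cells are descriptions and carry no evidence.

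The 5 libraries were a sham library and libraries made 1, 3, 7 and 14 days after TBI, each from cortical tissue of C57BL/6J mice and, for the injured animals, from the site of injury. Tissue was digested with papain and DNase I, debris was taken out with Percoll, and single-cell libraries of the 3′ ends of RNA were made on the 10x Chromium system with version 3 chemistry. The labels give no number of animals per library, no pooling, no sex and no age, and no gate or sort for lymphocytes. Each group was a single library, so no comparison between days has a replicate, and no p-value was computed. Intervals given below are 95% intervals of counting error (exact Clopper-Pearson for shares, exact Poisson for levels, exact conditional binomial for ratios). They do not cover differences between animals. Those of levels and ratios count every summed UMI as independent, so they also leave out differences between the cells of a gate. They are too narrow where a few cells hold most UMIs of a gene.

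A CD8 T cell recognises peptides presented on MHC class I through its T cell receptor, with the CD8 coreceptor binding the MHC molecule, and it kills through the pore-forming protein perforin and the granule proteases called granzymes. It also secretes interferon gamma and the chemokines Ccl3, Ccl4, Ccl5 and Xcl1. The healthy brain parenchyma holds few T cells. In other infected or injured tissues, a share of the CD8 T cells that enter stay as resident memory cells, which carry Cd69, Itgae (CD103) and Cxcr6 and have low Klf2, the factor that keeps the exit receptor S1pr1 expressed.

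Few CD8 T cells were found in the sham and day 1 libraries, and more in each later library. There were 2 in the sham library, 3 at day 1, 44 at day 3, 125 at day 7 and 472 at day 14. As shares of barcodes passing the quality limits these were 0.0174% in sham (interval 0.00210 to 0.0627), 0.0236% at day 1 (interval 0.00487 to 0.0690), 0.445% at day 3 (interval 0.324 to 0.598), 1.01% at day 7 (interval 0.843 to 1.20) and 3.95% at day 14 (interval 3.61 to 4.32). The sham and day 1 intervals overlapped, and the intervals of day 3, day 7 and day 14 did not overlap with each other or with the earlier ones. Median depth over all barcodes also went up along the series, with 773 UMIs in sham, 1756 at day 1, 3256 at day 3, 6581 at day 7 and 8558 at day 14, and a deeper barcode passes the detection conditions more easily. With every barcode thinned at random to 500 UMIs the CD8 counts were 1, 2, 8, 36 and 176 cells in the same order, or 0.0810% at day 3, 0.291% at day 7 and 1.47% at day 14.

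The CD4 T cells, chosen by the mirrored rule (Cd4 detected, no Cd8a or Cd8b1), numbered 0, 1, 7, 88 and 666 in the 5 libraries in time order. The CD8 share of the 2 gates together was 86.3% at day 3 (interval 73.7 to 94.3, 51 cells), 58.7% at day 7 (51.8 to 65.4, 213 cells) and 41.5% at day 14 (38.6 to 44.4, 1138 cells). That share rests on the detection of the sparse Cd4 transcript. At 500 UMIs per barcode it was 80.0% at day 7 and 72.4% at day 14. CD8 cells were thus the smaller gate at day 14 at full depth and the larger one at 500 UMIs. Before thinning, the day 14 gates had like median depths, 4902 UMIs in CD8 and 5017 UMIs in CD4 cells. Thinning left 67 of the 666 CD4 cells and 176 of the 472 CD8 cells in their gates, so the thinned share also holds this unequal loss of detection. Barcodes with Cd4 and a CD8 gene together numbered 5 at day 7 and 74 at day 14, and T cell barcodes with none of these coreceptors numbered 7, 14, 53, 116 and 777 in time order. NK cells, chosen on NK receptor genes without Cd3d, Cd3e, Cd3g and Cd8b1, numbered 3, 12, 9, 20 and 30.

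**Figure D1:**
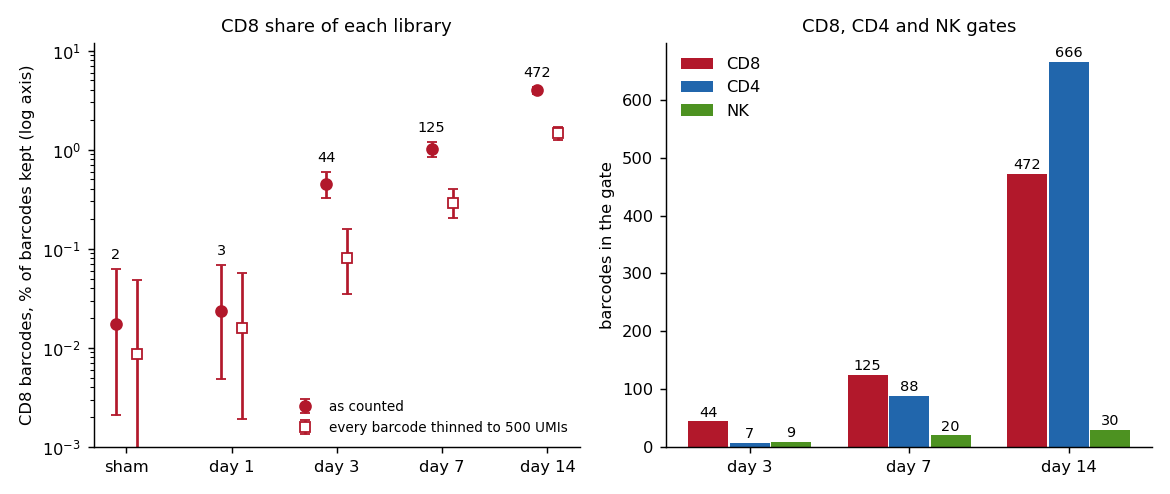
Left, CD8 barcodes as a percentage of the barcodes kept in each library (logarithmic axis), as counted and with every barcode thinned to 500 UMIs, with exact 95% intervals of counting error and the number of cells. Right, barcodes in the CD8, CD4 and NK gates at days 3, 7 and 14, with 125 CD8 and 88 CD4 cells at day 7 and 472 CD8 and 666 CD4 cells at day 14.

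Most cells lay well inside the rule at the late times. At day 14, 446 of the 472 cells had 5 or 6 of the T cell receptor genes and 2 cells had the minimum of 2, while at day 3, 24 of 44 had 5 or 6 and 7 had the minimum. Both CD8 genes were detected in 18 cells at day 3, 106 at day 7 and 395 at day 14, and a single CD8 UMI carried the call in 11, 7 and 42 cells. Just outside the rule at day 14 were 8 barcodes with 1 receptor gene, 74 with Cd4 detected, and 47 above the limit on C1q UMIs, of which the lowest had 0.266% against 0.198% in the highest cell kept. A UMI of a C1q gene, which T cells are not known to express, was seen in 22 of 44 cells at day 3, 124 of 125 at day 7 and 412 of 472 at day 14. The CD8 cells had a median of 3423 UMIs at day 3 (range 1005 to 26859), 6394 at day 7 (1805 to 23607) and 4902 at day 14 (1134 to 57690). Their median mitochondrial share was 1.07% at day 3, 4.30% at day 7 and 0.867% at day 14. Libraries shared between 27 and 59 barcodes in each pair, and no CD8 barcode was shared.

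The levels below are CPM: UMIs of a gene, summed over the cells of a gate in a library, for each 1000000 UMIs of those cells. In CD8 cells 1 UMI equals 4.10 CPM at day 3, 1.07 CPM at day 7 and 0.330 CPM at day 14. No levels are given for sham and day 1, where the 2 and 3 cells held 1781 and 7787 UMIs in all. Both markers that the rule had not used were higher in CD8 cells than in the rest of each library, which sets them apart from brain cells but not from other lymphocytes. Nkg7, a granule membrane protein of cytotoxic lymphocytes, had 664 CPM at day 3, 1531 at day 7 and 1867 at day 14, against 3.50, 13.4 and 50.4 CPM in the rest of the same libraries. Cxcr6, the receptor for the chemokine Cxcl16, had 69.7, 355 and 559 CPM in CD8 cells at those days, against 0.637, 5.38 and 65.7 CPM in the rest. At day 14 Cxcr6 was no higher in CD8 cells than in CD4 cells (602 CPM), and Nkg7 was near its level in NK cells (2132 CPM). Of the genes the rule used, Cd3e had 434, 515 and 729 CPM, Cd8a 176, 589.7 and 666 CPM, and Cd8b1 631, 793 and 835 CPM at days 3, 7 and 14. Both CD8 chains lie side by side on chromosome 6 (GRCm38), Cd8b1 at chr6:71322788-71337494 and Cd8a at chr6:71373427-71379173, both on the plus strand.

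The gate was mostly but not purely of alpha beta T cells. Trdc, the constant region of the delta chain of the gamma delta receptor, was at 0 at days 3 and 7 and at 17.2 CPM at day 14, in 7 cells. The gamma chain genes Tcrg-C1 and Tcrg-C2 were detected in 28 and 41 of the 472 cells at day 14, and reads can be divided wrongly among these near-identical segments. The beta chain constant genes Trbc1 and Trbc2 are also near-identical. With that limit, Trbc1 held 21.5% of Trbc UMIs at day 7 and 23.7% at day 14 (interval 22.6 to 24.7) in CD8 cells, against 22.7% and 34.6% (33.7 to 35.5) in CD4 cells of the same days. These intervals count every UMI as independent, although many UMIs come from the same cell, so they are too narrow.

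RNA of other cell types was present in the CD8 barcodes and moved with the day. Summed over each fixed marker list, oligodendrocyte genes had 164 CPM at day 3, 6463 at day 7 and 2835 at day 14, astrocyte genes 2831, 2281 and 325, endothelial genes 590, 582 and 64.4, microglial genes 717, 655 and 321, and monocyte and macrophage genes 86.0, 757 and 387. B and plasma cell genes had 49.2 CPM at day 3, 91.1 at day 7 and 11660 at day 14, where 3 cells were over 1% of UMIs and 1 barcode had 70.3% of its UMIs from this list. Erythroid genes had 0, 22.5 and 1085 CPM, with 1 barcode at 15.3% at day 14. Neutrophil genes stayed between 12.3 and 20.4 CPM and dendritic cell genes between 16.4 and 120.1 CPM. Without the barcodes in which any such list reached 1% of UMIs, 40 cells remained at day 3, 114 at day 7 and 455 at day 14. Values on these cells are called "marker-filtered" below, and the part of this RNA in a result was measured only by that filter. A doublet caller (Scrublet) marked 0 CD8 barcodes at day 3, 8 at day 7 and 14 at day 14.

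Within the day 14 library, CD8 cells stood apart from CD4 cells by their killing genes. A gene was counted as higher or lower when it was at least 2-fold apart with an interval that left out 0 on the log2 scale, among genes with a mean of at least 10 CPM. Of 8193 genes, 1.60% were higher and 2.69% lower in CD8 cells, or 1.31% and 3.28% on marker-filtered cells, and the median log2 ratio was -0.03. Of 17 cytotoxic effector genes, 15 were measured, 9 were higher, none was lower, and the median log2 ratio was 1.29. Of 24 NK receptors and adaptors, 14 were measured, 7 were higher and 2 lower, with a median of 1.26, which was 0.47 over the 15 measured on marker-filtered cells.

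The granule genes Gzma, Prf1 and Gzmk had the widest ratios of the cytotoxic group. Gzma, the tryptase granzyme A, had 195 CPM in CD8 and 4.14 CPM in CD4 cells, a log2 ratio of 5.56 (95% interval 4.94 to 6.24). Prf1, perforin, had 54.1 CPM in CD8 and 2.82 CPM in CD4 cells (4.26, interval 3.50 to 5.13). Gzmk, granzyme K, had 211 against 25.4 CPM (3.05, interval 2.78 to 3.33). Nkg7 had 1867 CPM in CD8 and 396 CPM in CD4 cells (2.24, interval 2.16 to 2.31). Gzmb, granzyme B, which cleaves after aspartate and activates caspases, had 307 against 94.8 CPM (1.69). Fasl, the death ligand, had 72.3 against 28.4 CPM (1.35), Ctsw 536 against 219.8 CPM (1.29), and Cst7, an inhibitor of granule cathepsins, 141 against 51.4 CPM (1.46).

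Gzma was carried by few cells. It was detected in 56 of 472 CD8 cells at day 14, and the 10 highest held 68.3% of its UMIs. Gzmk was detected in 56.1% of CD8 cells at full depth and Nkg7 in 96.4%. The genes lie on different chromosomes (GRCm38): Nkg7 at chr7:43437073-43438249, Prf1 at chr10:61297833-61304680, Gzmb at chr14:56258838-56262260, and Gzma and Gzmk both on chromosome 13, at chr13:113093825-113100981 and chr13:113171608-113225908, both on the minus strand.

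The promoters of 5 genes that were higher in CD8 than in CD4 cells are shown so that the letters they share can be read. RUNX and T-box factors, such as Runx3, Tbx21 and Eomes, are known regulators of cytotoxic lymphocyte genes. The windows are the 250 bases before each start in RefSeq on GRCm38.p6, whose starts differ from the annotated gene ends given above (for Gzmk the RefSeq start lies inside the longer annotated gene), written on the strand of the gene, with every match in capitals to the RUNX core TGTGGT or the T-box site TCACAC. Both motifs were searched on both strands, they do not overlap in these windows, and each match here reads as the reverse complement (ACCACA or GTGTGA).
Nkg7, chr7:43436888-43437137, plus strand: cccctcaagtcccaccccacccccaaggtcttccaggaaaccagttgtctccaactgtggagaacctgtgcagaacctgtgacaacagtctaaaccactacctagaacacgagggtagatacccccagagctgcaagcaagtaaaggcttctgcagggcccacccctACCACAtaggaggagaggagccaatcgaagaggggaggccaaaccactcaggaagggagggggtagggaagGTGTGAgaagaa
Prf1, chr10:61297586-61297835, plus strand: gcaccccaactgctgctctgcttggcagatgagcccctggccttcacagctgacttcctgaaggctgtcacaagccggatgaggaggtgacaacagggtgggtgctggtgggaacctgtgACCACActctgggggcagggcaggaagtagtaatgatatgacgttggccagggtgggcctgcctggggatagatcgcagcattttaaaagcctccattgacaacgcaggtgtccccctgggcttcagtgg
Xcl1, chr1:164935523-164935772, minus strand: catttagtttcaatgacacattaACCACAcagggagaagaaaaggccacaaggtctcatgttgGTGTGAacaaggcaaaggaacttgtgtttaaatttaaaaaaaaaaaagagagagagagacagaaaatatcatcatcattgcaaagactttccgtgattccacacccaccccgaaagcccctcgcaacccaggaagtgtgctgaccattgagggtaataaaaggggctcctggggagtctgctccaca
Gzma, chr13:113100982-113101231, minus strand: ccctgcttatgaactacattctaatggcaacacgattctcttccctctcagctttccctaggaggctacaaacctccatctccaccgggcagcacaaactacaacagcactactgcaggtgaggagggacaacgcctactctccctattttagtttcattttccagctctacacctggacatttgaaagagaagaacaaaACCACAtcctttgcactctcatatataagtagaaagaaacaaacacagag
Gzmk, chr13:113180966-113181215, minus strand: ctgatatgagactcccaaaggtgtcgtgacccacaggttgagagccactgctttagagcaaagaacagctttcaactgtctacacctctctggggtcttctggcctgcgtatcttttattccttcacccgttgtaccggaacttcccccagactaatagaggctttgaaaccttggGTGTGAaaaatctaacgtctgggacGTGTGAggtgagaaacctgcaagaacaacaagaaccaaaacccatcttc
In Nkg7 the RUNX match lies 83 to 78 bases before the start and the T-box match 12 to 7 bases before it. The Gzma match to the RUNX core lies 50 to 45 bases before the start, and that of Prf1 130 to 125 bases before it (130 being the farther base). Gzmk has no RUNX match and T-box matches 74 to 69 and 49 to 44 bases before the start, and Xcl1 has 1 match of each kind, 227 to 222 and 187 to 182 bases before it. Of the 17 cytotoxic effector genes 16 had a promoter in the table, with 18 windows, of which 9 (50%) held the RUNX core and 5 (27.8%) the T-box site. Among all 32851 windows of 27025 genes the shares were 14.0% and 12.3%. The RUNX core was in 38.5% of 26 windows of NK receptor and adaptor genes and 21.4% of 14 windows of secreted factors, and the T-box site in 11.5% and 28.6%. Of the 9 cytotoxic genes with the RUNX core, Cst7, Gzma, Gzmb, Nkg7 and Prf1 were higher in CD8 than in CD4 cells at day 14, and Gzmc, Gzmm, Lamp1 and Srgn were not measured or did not meet the rule. Fasl, Slamf7, Gzmk and Ctsw, which are not among these 9, were higher in CD8 cells as well. A match describes letters and does not show binding.

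Before marker filtering, the secreted products that were higher in CD8 than in CD4 cells at day 14 were all chemokines. Of 17 secreted factors 14 were measured, 3 were higher and 3 lower than in CD4 cells, and the median log2 ratio was -0.37. On marker-filtered cells 4 were higher and 3 lower, with a median of -0.47. Ccl5, a chemokine that attracts T cells and monocytes, had 7605 CPM in CD8 and 1449 CPM in CD4 cells (2.39, interval 2.35 to 2.43). Xcl1, which attracts Xcr1-bearing dendritic cells, had 228 against 18.3 CPM (3.65, interval 3.34 to 3.97). Ccl4 had 634 against 157 CPM (2.01). Il17a was lower in CD8 cells, with 36.6 against 168 CPM (-2.20), and so were Il10 and Lta. Ifng, interferon gamma, did not meet the rule, with 89.1 CPM in CD8 and 102 CPM in CD4 cells (interval of the log2 ratio -0.42 to 0.01).

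Among NK-type receptors, Klre1, Klrd1, Klrk1, Klrc2, Klrc1, Klra7 and Crtam were higher in CD8 cells. Klrd1, the CD94 chain, had 296 CPM in CD8 and 74.3 CPM in CD4 cells (1.99), its partner Klrc1 (NKG2A) 76.6 against 6.77 CPM (3.50), and the activating receptor Klrk1 (NKG2D) 151 against 38.9 CPM (1.95). Cd160, an Ig-family receptor of cytotoxic lymphocytes, had the highest lower bound of all genes named by rule, with 89.4 CPM in CD8 and 1.32 CPM in CD4 cells (6.09, interval 5.02 to 7.41). Crtam, a receptor induced on activated cytotoxic cells, had 42.9 against 2.07 CPM (4.37). Klrg1 and Klrb1f were lower in CD8 cells, but with no C1q UMI allowed (60 CD8 and 95 CD4 cells) the ratio of Klrg1 turned to 4.01.

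Some lineage regulators and receptors were lower in CD8 than in CD4 cells. Of 20 lineage transcription factors, all measured, Eomes alone was higher (48.5 CPM in CD8, 0.753 CPM in CD4 cells, log2 ratio 6.01), and 6 were lower. Those lower included Maf (116 against 723 CPM), Zbtb7b (ThPOK, the CD4 lineage factor, 9.24 against 43.8 CPM), Foxp3 (10.9 against 46.5 CPM), Ikzf2 (93.1 against 189 CPM) and Rora. Tbx21 and Runx3 did not meet the rule, with 44.9 and 305 CPM in CD8 cells against 33.7 and 164 CPM in CD4 cells. Cd40lg, the helper ligand for CD40, had 4.62 CPM in CD8 and 87.1 CPM in CD4 cells (-4.24). Of 23 cytokine and costimulatory receptors, all measured, 5 were lower and none higher, among them Tnfrsf4 (OX40, 37.6 against 263 CPM), Icos (133 against 549 CPM) and Il2ra (26.4 against 89.0 CPM).

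Checkpoint genes differed in both directions. Of 18, 15 were measured, with 3 higher (Cd244a, Nr4a2 and Cd160) and 5 lower (Ctla4, Tnfrsf9, Havcr2, Cd200r1 and Cd200). Pdcd1, the PD-1 receptor, had 23.4 CPM in CD8 and 40.1 CPM in CD4 cells, Lag3 38.9 and 44.4 CPM, and Tox, a factor known from exhausted CD8 cells, 53.8 and 48.5 CPM. After thinning each cell to 1000 UMIs, Pdcd1 was seen in 1.69% of CD8 and 4.07% of CD4 cells. Of 24 division genes, 24 were measured and 0 met the rule in either direction. T cell receptor signalling genes, 18 of 18 measured, had 0 higher and 2 lower, Cd5 and Cd28. Of 10 measured residence genes, Itgae (69.0 CPM in CD8, 24.3 CPM in CD4 cells) and Itga1 (162 against 74.3 CPM) were higher and Ahr was lower. Of 17 chemokine receptors and adhesion genes Ccr6 was lower and none higher, and Cxcr6 was alike at 559 CPM in CD8 and 602 CPM in CD4 cells. Among 14 measured genes of circulating T cells Bcl2 was higher and Ccr7 lower, among 20 immediate early and heat shock genes Dusp1 was lower, and among 15 measured glycolysis genes Hk2 and Hif1a were lower.

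The rule for named genes also returned transcripts of other cells. Of the 12 named as higher at day 14, 8 were Cd160, Gzma, Cd7, Prf1, Xcl1, Klrc1, Gzmk and Samd3, and the other 4 were the immunoglobulin genes Ighg2c and Ighm and the astrocyte-lineage genes Fabp7 and Slc1a2. Ighm had a log2 ratio of 4.24, and -0.47 on marker-filtered cells. Of the 12 lower, 5 were immunoglobulin genes, and Ttr, made by the choroid plexus, had 155 CPM in CD8 and 2431 CPM in CD4 cells. The others were Cd40lg, Slpi, the chemokine Ccl1 (12.5 against 111 CPM), Tnfrsf4, Maf and Ctla4.

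**Figure D2:**
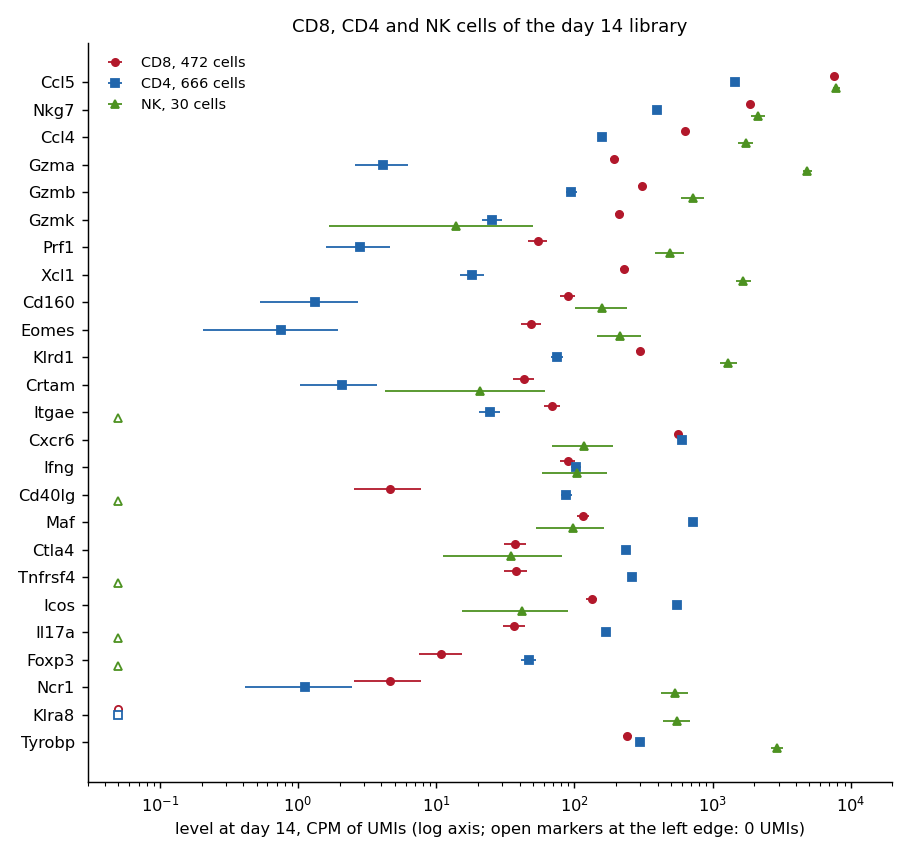
Levels in CPM (logarithmic axis) of effector, receptor and helper genes in the CD8, CD4 and NK gates of the day 14 library, with exact 95% Poisson intervals and open markers at the left edge for 0 UMIs. Granule genes sit higher in CD8 than in CD4 cells, and Gzma, Prf1 and Xcl1 sit higher still in the 30 NK cells.

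The same genes were set against CD4 cells at day 7, in another library with 125 CD8 and 88 CD4 cells. Of 8495 genes, 2.95% were higher and 3.56% lower in CD8 cells (1.61% and 2.86% on marker-filtered cells), with a median of -0.04. Of 15 measured cytotoxic effectors, 5 were higher and none lower, Cst7, Nkg7, Prf1, Gzma and Ctsw, and all 5 were also higher at day 14. Gzma had 102 CPM in CD8 and 6.92 CPM in CD4 cells (3.88, interval 2.48 to 5.78), and Prf1 57.9 against 15.6 CPM (1.89). Gzmb and Gzmk were short of 2-fold at day 7, with log2 ratios of 0.84 (95% interval 0.48 to 1.22) and 0.91 (95% interval 0.37 to 1.47). Xcl1, Ccl5 and Ccl4 were higher at day 7 as well, at 1.36, 1.04 and 2.37, and so were Cd160 (5.46), Klrd1 (2.11) and Klrk1 (2.94). Maf and Zbtb7b were lower at -2.18 and -1.51. Of 10 measured NK receptors and adaptors 5 were higher and none lower, with a median of 1.36, and of 20 measured cytokine and costimulatory receptors none was higher and 4 were lower. In each of the other lists, between 0 and 3 measured members were higher and between 0 and 3 lower. No test of the difference between days 7 and 14 in these ratios was possible with 1 library each.

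NK cells of day 14 were few (30 cells), and their intervals are wide. Of 8008 genes, 3.62% were higher and 6.17% lower in CD8 cells (3.04% and 6.51% on marker-filtered cells), with a median of -0.07. This split depends on the scaling: 290 genes were higher and 494 lower, so 36.99% of the called genes were higher, while under TMM scaling 454 were higher and 351 lower, or 56.4%. CD8 cells had less of the granule products. Of 17 cytotoxic effectors 16 were measured, 7 were lower and 1 (Gzmk) higher, with a median of -0.81. Gzma had 195 CPM in CD8 and 4838 CPM in NK cells (-4.63), where the 10 highest NK cells held 87.0% of the UMIs. Prf1 had 54.1 against 491 CPM (-3.18), Gzmb 307 against 719.9 CPM (-1.23), and Xcl1 228 against 1668 CPM (-2.87). Gzmk ran the other way, with 211 CPM in CD8 and 13.8 CPM in NK cells (3.93, interval 2.07 to 6.98). Ccl5 and Nkg7 were within 2-fold, at -0.04 and -0.19.

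Of 24 NK receptors and adaptors, 22 were measured and 19 were lower in CD8 cells, but Ncr1, Klrb1c, Klre1, Klra4 and Klra8 were used to choose the NK cells and Klra and Klrb1 paralogs resemble them, so these differences follow in part from that choice. Outside the NK rule, Klrk1 had 151 against 1004 CPM and Klrd1 296 against 1301 CPM. Interferon-stimulated genes were higher in CD8 cells, with 16 of 26 measured members higher, none lower and a median of 1.23. Ifi27l2a had 2769 CPM in CD8 and 90.0 CPM in NK cells (4.94), and Isg15, a ubiquitin-like protein, 546 against 132 CPM (2.05). Of 22 measured division genes 9 were higher in CD8 cells and none lower. Of 14 measured genes of circulating T cells 7 were lower and none higher, among them Klf2 (104 CPM in CD8, 291 CPM in NK cells). T cell receptor signalling genes had 5 higher of 17 measured and none lower, and glycolysis genes 3 higher of 16 and none lower. In the other 7 lists, between 0 and 2 measured members were higher and between 1 and 6 lower. The T cell genes Bcl11b and Themis had 265 and 137 CPM in CD8 cells, against 6.92 and 0 CPM in NK cells. The NK gate allowed no Cd3d, Cd3e, Cd3g or Cd8b1 and the CD8 gate required T cell receptor genes. The differences in T cell genes, receptor signalling genes included, thus follow in part from the gates.

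CD8 cells of day 14 were next set against those of day 7. Of 8314 genes, 2.75% were higher and 6.57% lower at day 14 (3.15% and 4.44% on marker-filtered cells), and the median log2 ratio was -0.01. None of the 16 measured cytotoxic effectors met the rule, with a median of 0.18. Ccl5 had 7605 CPM at day 14 and 4258 CPM at day 7 (0.84, interval 0.79 to 0.89), Nkg7 1867 against 1531 CPM (0.29), Gzmb 307 against 257 CPM (0.25), and Prf1 54.1 against 57.9 CPM (-0.10, interval -0.55 to 0.37). The granule genes thus lay within 2-fold of each other at both late times. Among secreted factors 12 were measured, with Ifng and Ccl3 lower and Il17a higher at day 14. Ifng had 89.1 CPM at day 14 and 263 CPM at day 7 (-1.56, interval -1.81 to -1.30), and in CD4 cells it had 102 and 296 CPM. Ccl3, which microglia also express, had 65.0 against 151 CPM (-1.22). Il17a had 36.6 CPM at day 14 and 0 UMIs at day 7, at least 3.51 apart on the log2 scale with day 7 set at 3 UMIs.

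Itgae, Klf2 and Il7r, genes of tissue residence and recirculation, met the rule between the late days. Itgae, the alpha E integrin that binds E-cadherin, had 69.0 CPM in 90 cells at day 14 and 5.36 CPM in 3 cells at day 7, a log2 ratio of 3.69 (95% interval 2.44 to 5.32), and no UMI at day 3. In CD4 cells Itgae had 24.3 CPM at day 14 and 3.46 CPM at day 7. With each cell thinned to 1000 UMIs, Itgae was seen in 5.93% of CD8 cells at day 14 (interval 3.98 to 8.46, 19.1% unthinned) and in 0 of 125 at day 7 (0 to 2.91, 2.40% unthinned). Klf2 had 104 CPM at day 14 and 417 CPM at day 7 (-2.00, interval -2.22 to -1.79), and its thinned share was 9.96% (7.41 to 13.0, 26.5% unthinned) at day 14 and 30.4% (22.5 to 39.3, 58.4% unthinned) at day 7. Klf2 was likewise at 90.9 CPM at day 14 and 436 CPM at day 7 in CD4 cells, and at 71.6 and 246 CPM in the rest of those libraries. Il7r, the interleukin 7 receptor of long-lived T cells, had 219 CPM at day 14 and 64.3 CPM at day 7 (1.77, interval 1.39 to 2.18), with 393 and 126 CPM in CD4 cells.

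Not every gene of these groups moved. Of 10 measured residence genes, Itgae and Prdm1 were higher and none was lower, with a median of 0.49, and on marker-filtered cells 2 were higher and 1 lower. Cd69, which retains T cells by blocking S1pr1, had 481 against 268 CPM (0.84), Cxcr6 559 against 355 CPM (0.65), and Itga1 (CD49a) 162 against 121 CPM (0.42). Of 15 measured genes of circulating or memory T cells, Il7r was higher, and Klf2 and Dapl1 were lower. Tcf7, the factor TCF-1, had 80.5 against 84.7 CPM. Of 16 measured chemokine receptors and adhesion genes 1 was higher, the gut-homing receptor Ccr9 at 23.1 against 6.43 CPM, and 1 lower, Cx3cr1, which microglia also express. Cxcr3 had 199 against 163 CPM and Itga4, the VLA-4 chain used to enter the brain, 235 against 252 CPM.

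**Figure D3:**
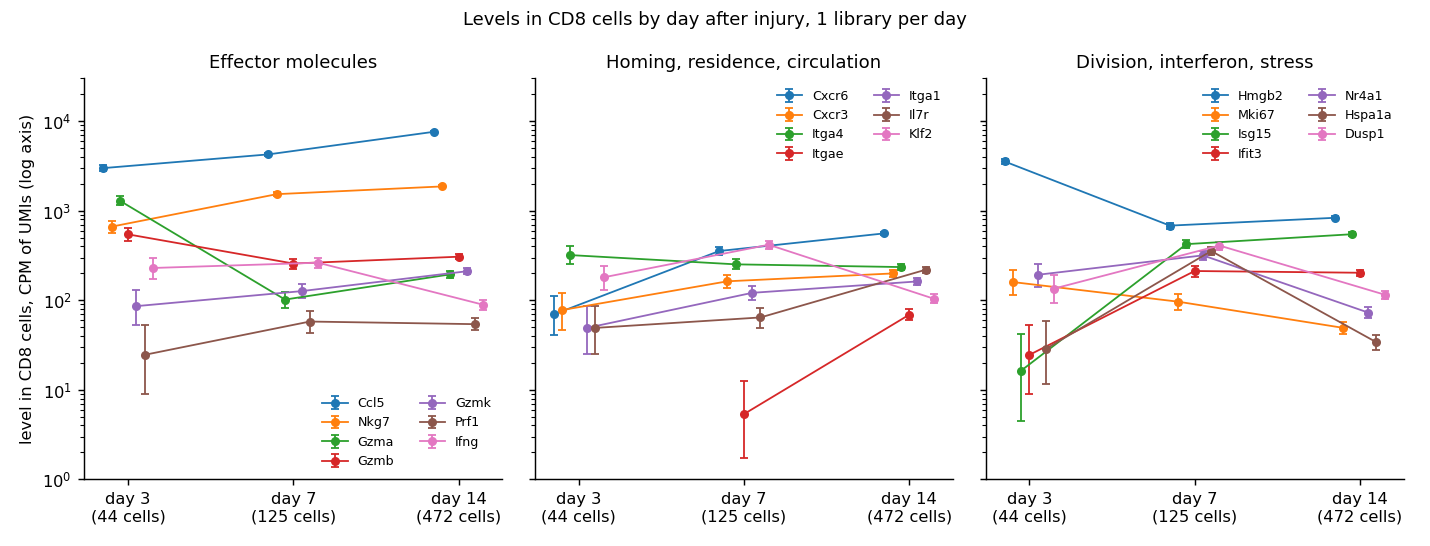
Levels in CPM (logarithmic axis) of effector, trafficking and response genes in CD8 cells at days 3, 7 and 14 after TBI, 1 library each, with exact 95% Poisson intervals of counting error, and levels of 0 UMIs not drawn. Gzma has its highest level at day 3, Itgae is not drawn at day 3 and has 69.0 CPM at day 14, and Klf2 and Ifng have their lowest level at day 14.

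A few genes of the transcription factor, receptor and checkpoint lists were higher at day 14. Ikzf2 (Helios) had 93.1 CPM at day 14 and 22.5 CPM at day 7 (2.05), Il2ra 26.4 against 4.29 CPM (2.62), Ctla4 37.3 against 13.9 CPM (1.42), and Tnfrsf4 37.6 against 1.07 CPM (5.13, interval 2.63 to 10.45). These 4 genes are also in the marker list of regulatory and helper CD4 T cells, and each had a higher level in the CD4 gate at day 14. Tnfrsf4 was detected in 31 of 472 CD8 cells at day 14, with 72.8% of its UMIs in 10 cells, and by 1 UMI at day 7. Ctla4 was detected in 53 CD8 cells at day 14, with 47.8% of its UMIs in 10 cells. Of 12 measured NK receptors and adaptors 4 were higher, Klrd1 (296 against 142 CPM), Klrc1, Klre1 and Klra7, and Fcgr3 was lower. Klra genes are close paralogs, and reads may be divided among them. At day 14 the 28 marker-filtered cells without a Cd8b1 UMI had 372 CPM of Klra7, against 4.34 CPM in the 427 with Cd8b1. Of 18 measured transcription factors, Ikzf2 and Irf4 were higher and Id3 was lower. The orphan receptors Nr4a2 (85.5 against 247 CPM) and Nr4a3, induced by receptor signalling, were lower, while Pdcd1 (23.4 against 33.2 CPM) and Tox (53.8 against 51.5 CPM) were within 2-fold. Of 11 measured checkpoint genes 1 was higher (Ctla4) and 3 lower (Nr4a2, Nr4a3 and Cd200, the last at 0.25 on marker-filtered cells), and of 21 measured cytokine and costimulatory receptors 2 were higher (Il2ra and Tnfrsf4) and none lower. None of 17 measured T cell receptor signalling genes met the rule, and of 15 glycolysis genes Slc2a1 and Hk2 were lower.

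The group with the most members apart was that of immediate early and heat shock genes. Of 20, all measured, 12 were lower at day 14 and none higher, with a median log2 ratio of -1.23, and on marker-filtered cells again 12 were lower, with a median of -1.30. Hspa1a, the inducible HSP70, had 34.0 CPM at day 14 and 355 CPM at day 7 (-3.38, interval -3.72 to -3.06), and Hsph1 49.5 against 259 CPM (-2.39). Nr4a1 had 72.9 against 317 CPM (-2.12), Dusp1, a MAP kinase phosphatase, 116 against 409 CPM (-1.82), and Fos 291 against 651 CPM (-1.16). In CD4 cells Hspa1a had 45.2 CPM at day 14 and 569 CPM at day 7, and in the rest of those libraries 30.3 and 135 CPM. Fos differed in the other direction in the rest, with 732 CPM at day 14 and 481 CPM at day 7. The day 7 library also stood apart in Gm42418, which had 1075 CPM in CD8 cells at day 14 and 33922 CPM at day 7, and 1302 and 34285 CPM in the rest. Lars2, a mitochondrial leucyl-tRNA synthetase gene, had 33.3 against 758 CPM, and the median mitochondrial share of CD8 cells was 0.867% at day 14 and 4.30% at day 7. The part of these library differences in the results on day 14 and day 7 was not tested.

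Interferon-stimulated genes were at like levels at both late times. Of 26, all measured, 1 (Oas1a) was higher at day 14 and none lower, with a median of 0.25. Isg15 had 16.4 CPM at day 3, 424 at day 7 and 546 at day 14, and Ifit1 4.10, 194 and 249 CPM. Rsad2 (viperin) had 0, 113 and 86.1 CPM, and Ifi27l2a 659.7, 2897 and 2769 CPM. Day 3 was thus the lowest of the 3 days for each of these 4 genes. In the rest of the libraries Isg15 had 63.7, 124 and 184 CPM at the same days. Against CD4 cells, Ifit3 was higher at day 14 (203 CPM in CD8, 89.0 CPM in CD4) and none of the 26 was lower, whereas at day 7 none was higher and 3 (Oasl2, Oas1a and Iigp1) were lower.

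Of the 12 genes named by rule as higher at day 14, 8 were immunoglobulin genes (Jchain included) and 4 haemoglobin genes. Igkc had 8152 CPM at day 14 and 11.8 CPM at day 7, with 95.5% of the day 14 UMIs in 10 cells, and 407 and 14.4 CPM on marker-filtered cells. Ighg2b was spread more widely, with 131 CPM in 247 cells at day 14 and 0 UMIs at day 7. Of the 12 lower, 10 were Cxcl12, Cldn5, Flt1, Vtn, Aldoc, Ly6c1, Rgs5, Spock2, Igfbp7 and Sparcl1, most of which vascular cells or astrocytes are known to express, and the other 2 were Gm42418 and Lars2.

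**Figure D4:**
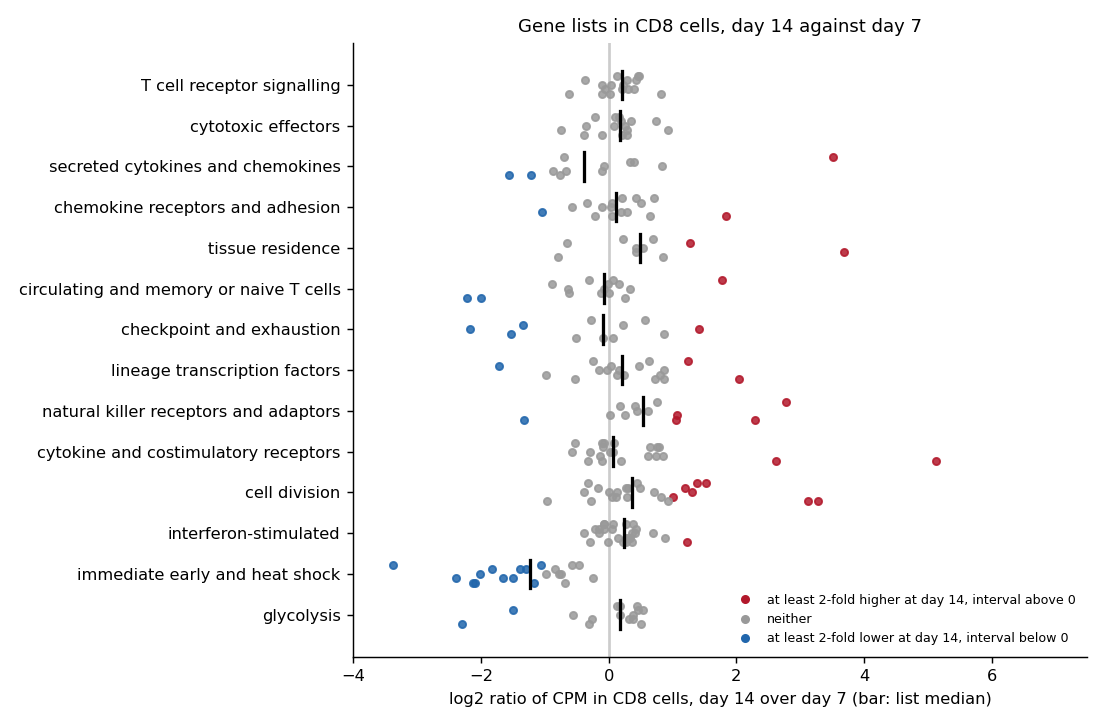
Log2 ratio of CPM in CD8 cells of day 14 over day 7 for the measured genes of 14 function lists, 1 point a gene (red, at least 2-fold higher at day 14, blue, at least 2-fold lower, grey, neither), with a bar at the list median. The immediate early and heat shock list has a median of -1.23 and 12 of 20 genes lower, and the cytotoxic list has a median of 0.18 and no gene past the rule.

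Day 3 held 44 CD8 cells and is described without ratios. Gzma had 1295 CPM (95% interval 1156 to 1446) in 25 of the 44 cells, above 102 CPM at day 7 and 195 CPM at day 14, and its interval overlapped with neither. Gzmb had 545, 257 and 307 CPM at days 3, 7 and 14, and was highest at day 3 as well. Gzmk ran in the other order, with 86.0, 127 and 211 CPM, the intervals of days 3 and 7 overlapping (53.3 to 132 and 105 to 152). Prf1 had 24.6 CPM at day 3 (interval 9.02 to 53.5), which overlapped with the 57.9 CPM of day 7 (interval 43.5 to 75.5). Ccl5 had 2991 CPM at day 3 and Ifng 229 CPM.

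Of the 24 division genes, 24 had their highest level of the 3 days at day 3. For 17 of them the day 3 interval lay above those of both later days. The same counts over all genes are not given here, so these counts have no background to be set against. Hmgb2 had 3548 CPM at day 3, 682 at day 7 and 834 at day 14, Birc5 (survivin) 279, 42.9 and 52.8 CPM, and Mki67 159.8, 96.5 and 49.2 CPM, where the Mki67 intervals of day 3 (114 to 218) and day 7 (77.6 to 119) overlapped. In the rest of the libraries Hmgb2 had 1058, 213 and 258 CPM, in the same order of days. Counted per cell after thinning to 1000 UMIs, at least 3 of 14 division genes were seen in 8 of 44 cells at day 3 (18.2%, interval 8.19 to 32.7, 31.8% unthinned), 4 of 125 at day 7 (3.2%, 0.879 to 7.99, 8.80% unthinned) and 10 of 472 at day 14 (2.12%, 1.02 to 3.86, 3.39% unthinned). In CD4 cells of day 14 it was 22 of 664 (3.31%). At day 14, set against day 7, 7 of 24 division genes were higher by the rule, among them Ube2c (93.1 against 10.7 CPM) and Ccnb1 (31.4 against 3.22 CPM), but 3 were higher and 1 lower on marker-filtered cells, and with each cell weighted equally 5 of the 7 had a negative log2 ratio.

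**Figure D5:**
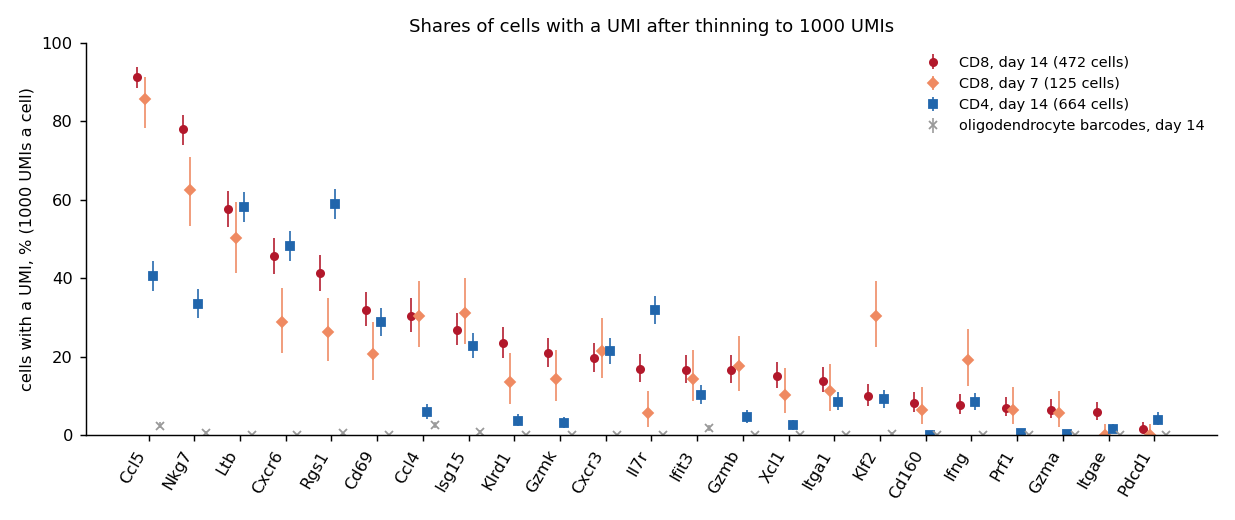
Share of cells (percent) with a UMI of each gene after thinning every cell to 1000 UMIs, in CD8 cells of day 14 and day 7, CD4 cells of day 14 and oligodendrocyte barcodes of day 14 as background, with Clopper-Pearson 95% intervals. Ccl5 and Nkg7 reach 91.3% and 78.0% of CD8 cells at day 14, against 2.52% and 0.572% of oligodendrocyte barcodes.

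The share of CD8 cells with a UMI differed widely between genes. No share expected from cells of equal level was computed, so these shares alone do not show that cells differ. After thinning to 1000 UMIs, Ccl5 was seen in 91.3% of CD8 cells at day 14 (95.8% unthinned), 85.6% at day 7 (97.6% unthinned) and 40.7% of CD4 cells at day 14. Nkg7 was seen in 78.0% of CD8 cells at day 14 (74.0 to 81.6, 96.4% unthinned), 62.4% at day 7 (53.3 to 70.9, 96.8% unthinned) and 33.6% of CD4 cells at day 14. The background in oligodendrocyte barcodes, which should lack both genes, was 2.52% for Ccl5 and 0.572% for Nkg7 at day 14, where those barcodes had a median of 9140 UMIs and CD8 cells 4902. Granzymes were seen in smaller shares, with Gzmk in 21.0% (17.4 to 24.9, 56.1% unthinned), Gzmb in 16.7% (33.7% unthinned) and Gzma in 6.57% (11.9% unthinned) of CD8 cells at day 14. Cxcr6 was seen in 45.8% (41.2 to 50.4, 84.3% unthinned) of CD8 cells at day 14 and 28.8% (21.1 to 37.6, 80.0% unthinned) at day 7, and in 48.2% of CD4 cells at day 14. Ifng was seen in 7.84% (5.58 to 10.6, 29.2% unthinned) at day 14 and 19.2% (12.7 to 27.2, 52.8% unthinned) at day 7. In oligodendrocyte barcodes of day 14 the thinned share was 0% for Gzma, Gzmb, Cxcr6 and Ifng, 0.0572% for Gzmk, 0.114% for Itgae and 0.457% for Klf2. Ccl4 had the highest background of the genes counted this way, at 2.69% (25.5% unthinned), against 30.5% (61.4% unthinned) of CD8 cells at day 14. At day 7 its background was 6.07% (53.7% unthinned).

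Pairs of genes in the 472 thinned cells of day 14 are given as a description, since the cells share a library and differ in how much of a transcript they yield. Gzmb was seen in 41.9% of the 31 cells with Gzma and in 15.0% of the others. It was seen in 35.7% of the 28 cells with Itgae and 15.5% of the others, but in 8.33% of the 72 cells with Xcl1 and 18.2% of the others. None of the 47 cells with Klf2 had Itgae, which was seen in only 6.59% of the others, so few shared cells could be seen at this depth. At full depth the marker-filtered cells with Itgae did hold Klf2, at 37.3 CPM. Gzmk was seen in 21.4% of the 28 cells with Itgae and 20.9% of the others. Itgae was seen in 9.26% of the 216 cells with Cxcr6 and 3.13% of the others.

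Summed profiles of the marker-filtered cells of day 14 were compared between cells with and without a UMI of 1 gene, and the differences given met the 2-fold rule. The 84 cells with Itgae had more Gzmb than the 371 without (552 against 250.1 CPM), more Ccl4 (1058 against 526 CPM), and more Ccr9 (71.6 against 11.1 CPM). They had less Klf2 (37.3 against 132 CPM), Eomes (14.0 against 65.1 CPM), Tcf7 (31.1 against 99.8 CPM) and Klrk1 (71.6 against 191 CPM). Markers of other T cell types, and adaptors shared with other cells, were higher with Itgae too. Of the regulatory and helper type, Foxp3 had 35.8 against 4.34 CPM, Tnfrsf4 103 against 18.8 CPM, Il2ra 60.7 against 16.4 CPM, Ctla4 76.3 against 27.5 CPM and Ikzf2 165 against 73.3 CPM. The adaptors Tyrobp and Fcer1g, which NK cells and also microglia and macrophages use, had 453 and 344 CPM against 159.5 and 137 CPM. Neither adaptor was in the marker lists behind the filter. The gamma chain genes Tcrg-C1 and Tcrg-C2 had 52.9 and 65.4 CPM against 22.7 and 22.2 CPM. The part of these cell types in the differences with Itgae was not tested. The cells with Itgae had a median of 5541 UMIs and the others 4758, so detection favours the deeper cells.

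Cells with Gzmk numbered 257 and cells without 198, at medians of 4929 and 4806 UMIs. Those with Gzmk had more Gzma (314 against 79.9 CPM) and more Gzmb (429 against 169.6 CPM). Division genes such as Ube2c (146 against 14.2 CPM) and Cenpf (51.5 against 2.66 CPM) were higher too, but the cells carrying them were not counted in this split. In the whole day 14 gate, at least 3 of 14 division genes were seen in 16 of 472 unthinned cells, so few cells may hold these UMIs. Cells with Gzmk had less Il17a (3.14 against 94.1 CPM) and Irf8 (27.0 against 157 CPM). Genes of unconventional T cells and NK cells were also lower with Gzmk, with Trdc at 7.54 against 35.5 CPM, Tcrg-C1 at 14.5 against 51.5 CPM and Klra7 at 14.5 against 49.7 CPM. So was Tyrobp, which microglia and macrophages use too, at 141 against 353 CPM. The 55 cells with Gzma had 846 CPM of Gzmb and 1101 CPM of Isg15, against 235 and 510.4 CPM in the 400 without.

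A small set of cells without a UMI of the CD8 beta chain differed from the rest in its summed profile, by the same 2-fold rule. The 28 marker-filtered cells in which Cd8a but no Cd8b1 was detected had 372 CPM of Klra7, an inhibitory Ly49 receptor, against 4.34 CPM in the 427 with Cd8b1 (log2 ratio 6.42). They also had more Ikzf2 (492 against 66.3 CPM), Irf8 (317 against 63.9 CPM), Gzma (585 against 190.2 CPM), Trdc (109 against 12.6 CPM), Il17a (126 against 34.7 CPM) and Fcer1g (410.0 against 169.6 CPM). Gzmb (109 against 337 CPM), Itgae (10.9 against 77.3 CPM) and the division gene Stmn1 (16.4 against 195 CPM) were lower. How many of the 28 cells carried each of these genes was not counted, so a few cells may hold most of the UMIs. The median depth of the 28 cells was 5221 UMIs, against 4866 UMIs in the cells with Cd8b1. Expression of the CD8 alpha chain without the beta chain is known from gamma delta and other unconventional T cells and from dendritic cells, and the present cells were not assigned to any of them.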

How the data were processed

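Single-cell RNA-seq of 5 mouse cortex libraries was used, 1 per group. The deposited values were UMI counts per gene and barcode in filtered matrices, written by Cell Ranger 4.0.0 per the file headers. The submitters' processing notes name STAR 2.5.37, Seurat 3.2.0 and the mm10 build without roles. All 55450 gene IDs matched the GENCODE annotation of GRCm38. Whether introns were counted is not stated per the labels or the file headers.

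Gates were applied in Python 3.11.15 (numpy 2.4.6, scipy 1.17.1, pandas 2.3.3, scanpy 1.11.5), as described with the results. UMIs were summed per gate and library and divided by their total. Each group was 1 library, so no test and no p-value was computed, and intervals cover counting error only. Genes with a mean under 10 CPM over the 2 groups were left out. A count of 0 was set to 3 UMIs for a lower bound. The ratio step was tested on simulated counts. Barcodes called doublets by Scrublet were kept, with their removal as an alternative. Named genes were the 12 with the highest lower bound and the 12 with the lowest upper bound of the log2 ratio among genes at 50 CPM or more in 1 of both groups, leaving out the gate's own genes, mitochondrial and ribosomal protein genes, plus members of 14 function lists. The cells, lists and markers were chosen with earlier results of these data known. The filter on other cells' markers (10 lists, 1% of UMIs) was chosen after seeing the data. So was the gate for oligodendrocyte barcodes (3 of 8 genes and at least 5% of UMIs), since detection of 3 of the genes alone took most barcodes at day 7. The splits of day 14 cells were likewise chosen with the values known. Alternatives were doublet removal, other limits on C1q, mitochondria and coreceptors, TMM or median scaling, low-count filters and means over cells. Some results are not reported here.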

Additional observations from a re-analysis of the deposited data

Results flagged for a closer look

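Cd200, the ligand of an inhibitory receptor on myeloid cells, differed between CD8 and CD4 cells in opposite directions at the late times. At day 14 the log2 ratio of CD8 over CD4 was -2.30 (95% interval -2.99 to -1.67, 7.59 CPM in CD8 and 37.3 CPM in CD4 cells), and at day 7 it was 1.89 (0.12 to 4.30, 19.3 CPM in CD8 and 5.19 CPM in CD4 cells). The difference between the days was not tested, as each day is 1 library. At day 7 Cd200 was detected in 7 CD8 cells, and on marker-filtered cells the day 7 ratio was -0.26.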

How the results depend on the processing

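Of 152 values of the main results under an alternative, 118 kept their direction and size and 34 moved, and of 3155 values of named genes 2797 kept them, 333 moved and 25 reversed. With both Cd8a and Cd8b1 required, the CD8 share of barcodes was 0% in sham, 0.182% at day 3 and 3.31% at day 14, and the CD8 share of T cells 72.0% at day 3 and 37.2% at day 14. Without the limit on C1q it was 1.21% of barcodes at day 7 and 4.34% at day 14. With every barcode thinned to 500 UMIs it was 0.0810%, 0.291% and 1.47% of barcodes at days 3, 7 and 14, and 100%, 80.0% and 72.4% of T cells. Of 92 thinned shares at 500 or 2000 UMIs in place of 1000, 72 moved.

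With no C1q UMI allowed, 1 CD8 cell was left at day 7, 60 CD8 cells and 5 NK cells at day 14, so values under this limit have little depth. The CD8 share was then 0.223% of barcodes at day 3, 0.00809% at day 7 and 0.502% at day 14, and 33.3% of T cells at day 7. In day 14 against day 7, 18 genes were higher and 66 lower, and Ube2c (-5.61) and Oas1a (-2.91) reversed. Against CD4 cells 437 were lower, and Slc1a2 (-0.32), Ighg2b (0.42), Ighg1 (0.68) and Klrg1 (4.01) reversed. Against NK cells 31 were higher and 190 lower, and the log2 ratios of Ighg2c (-0.60), Gzmb (0.70), Ccl3 (0.66), S1pr4 (0.33), Eomes (0.25), Tnfrsf18 (0.99), Igtp (-1.30) and Hsp90aa1 (-0.35) reversed.

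On marker-filtered cells, 348 genes in place of 546 were lower at day 14 than at day 7. Cd200 (0.25) reversed there, as did Ighm (-0.47), Ighg2b (0.0730), Ighg1 (0.15) and Ighv1-80 (1.72) against CD4 cells and Ighm (-1.35) against NK cells. As a mean over cells, Cdk1 (-0.54), Ccnb2 (-1.37), Ccna2 (-0.45), Cdca8 (-0.25) and Tpx2 (-0.48) reversed in day 14 against day 7. With a filter at 50 CPM, the counts of higher and lower genes were 47 and 127 in place of 229 and 546 for day 14 against day 7, 33 and 57 in place of 131 and 220 against CD4, and 174 and 219 in place of 290 and 494 against NK cells. With no filter they were 349 and 1003 for day 14 against day 7 and 551 and 609 against CD4 cells. TMM scaling gave 454 higher genes against NK cells. Apart from fewer cells or other sets of genes, the cause of these changes was not tested. No paired analysis was possible because each group is 1 library, and for the same reason no library could be left out of a comparison.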
